A study of Mus musculus with 4 samples.

Results

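The Id genes Id1, Id2, Id3 and Id4 are 4 of the 49671 genes in the deposited tables of unique molecular identifiers (UMIs, each standing for 1 captured RNA molecule). The tables cover olfactory epithelium of CD-1 mice taken on the day of birth (P0) and on postnatal days 3, 7 and 21 (P3, P7, P21), with cells freed by papain and captured on the 10x Genomics Chromium system with its v2 chemistry, which counts the 3' ends of polyadenylated RNA. All 4 groups share strain, tissue and method and differ in age, with no genetic change or treatment named. Each age is 1 library. The labels give neither the number and sex of the mice nor the gate of the sort that the protocol mentions. A difference between ages is therefore a difference between 2 libraries, age and library cannot be told apart, and no test across animals is possible. The 4 genes were taken by name, after Id2 had been seen to be higher in immature neurons of the P21 library and Id4 to mark late precursors. Those 2 patterns are given below as a description and support nothing. All intervals are 95% intervals and cover counting error only, since a gate of 1 library is 1 sample however many cells it holds.

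Id proteins have a helix-loop-helix domain but lack the basic stretch that contacts DNA. They pair with the ubiquitous E proteins (Tcf3, Tcf4 and Tcf12) and so keep these from joining tissue-specific helix-loop-helix activators such as Neurog1 and Neurod1, and Id1, Id2 and Id3 are widely used as readouts of BMP signalling. Olfactory sensory neurons (OSNs) are renewed from basal cells through stages that express Neurog1 and Neurod1, before they become Gap43-positive immature neurons and Omp-positive mature neurons. Horizontal basal cells are the reserve stem cells under this lineage, and sustentacular cells, microvillar cells, ensheathing glia, stromal cells and mural cells are its neighbours.

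The 4 genes lie on 4 chromosomes. On GRCm38, with GENCODE M21 gene limits, Id1 occupies chr2:152736251-152737410 on the plus strand, Id2 chr12:25093799-25097140 on the minus strand, Id3 chr4:136143497-136145755 on the plus strand and Id4 chr13:48261228-48266026 on the plus strand. Id4 had its peak in a single stage of the neuronal lineage, which the values below turn on, so its upstream sequence is shown. The 250 bases before its RefSeq start, chr13:48260866-48261115 (GRCm38.p6, plus strand, RefSeq), read as follows, with capitals marking the CCAAT motif in either orientation.
Id4 upstream: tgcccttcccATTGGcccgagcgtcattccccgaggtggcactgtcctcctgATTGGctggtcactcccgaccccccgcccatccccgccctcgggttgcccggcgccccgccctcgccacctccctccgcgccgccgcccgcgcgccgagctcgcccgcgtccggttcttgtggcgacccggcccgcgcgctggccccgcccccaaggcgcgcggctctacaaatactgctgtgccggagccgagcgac
The 2 matches, both as the reverse complement, begin 240 and 198 bases before the start. The search covered both strands for CCAAT, which was present in 33.8% of the 32851 RefSeq windows of this length. The Id4 window was 75.6% G or C, against a median of 52.4% over those windows, and held no CANNTG, the E-box bound by helix-loop-helix dimers, on either strand, while 66.2% of those windows held at least 1. A match describes letters in this window, and the tables hold no measurement of binding there.

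The libraries held 2691, 3220, 1785 and 1413 cells after filtering at P0, P3, P7 and P21, with medians of 3227 to 4982 UMIs per cell and 6844712 to 17770838 UMIs per library. Cells were placed by UMIs of marker genes, none of them an Id gene, in 14 gates, of which secretory and endothelial cells had under 30 cells in each library and are not described. A further 303 cells were set aside and are not analysed here, and 5.80% to 16.7% of each library stayed ungated. The sample titles name OSNs, but the libraries also held basal, supporting, glial, stromal and immune cells. Of all cells, the mature OSN gate (at least 4 Omp UMIs) held 426, 398, 394 and 885, and the immature OSN gate (at least 5 Gap43 UMIs, more than Omp) held 691, 588, 377 and 154. Stromal cells numbered 151, 417, 134 and 11. The P0 and P3 libraries shared 68 cell barcodes, and 35 of these pairs fell in the same gate. The main ratios below were recomputed without all 183 cells with a shared barcode, and each kept its direction and moved by less than its interval. A level is given as CPM, the UMIs of a gene per 1000000 UMIs of the summed cells of a gate, and gates with at least 30 cells in a library enter a comparison. The Tex15+ gate of P21, with 27 cells, was kept as an exception. A gene was called higher or lower between 2 sums when it differed at least 2-fold and reached 50 CPM and 20 UMIs in either.

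Along the neuronal lineage Id1, Id2 and Id3 were high in dividing and early precursors and low in mature neurons, while Id4 took another course. Id1 stood at 175, 217, 262 and 278 CPM in cycling Neurod1+ precursors of the P0, P3, P7 and P21 libraries. In the mature OSN gate it stood at 1.09, 2.74, 0.495 and 6.48 CPM, on 2, 6, 1 and 26 UMIs. Id1 was thus at the limit of detection in mature neurons of the P0, P3 and P7 libraries, and its highest mature level was below its lowest level in either Neurod1+ gate.

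Id2, which like Id1 acts on E proteins, followed the same course with a later end. It stood at 174, 238, 278 and 361 CPM in cycling Neurod1+ precursors and at 128, 187, 209 and 340 CPM in non-cycling ones. It was at 16.4, 51.7 and 27.2 CPM in Tex15+ late precursors at P0, P3 and P7. The 27 such cells of the P21 library held 8 Id2 UMIs, or 51.8 CPM. Immature OSNs had 43.4, 54.4, 66.8 and 145 CPM of Id2 and mature OSNs 1.64, 4.56, 4.95 and 7.73 CPM. Its level in mature OSNs was 26.4-, 11.9-, 13.5- and 18.8-fold lower than in immature OSNs of the same library.

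Id3 differed from Id1 in that it was still present in immature OSNs. It stood at 155, 288, 244 and 403 CPM in cycling Neurod1+ precursors and at 55.7, 43.5, 89.3 and 153 CPM in immature OSNs. In mature OSNs it was at 4.38, 7.30, 4.95 and 37.9 CPM. The P21 value lay above the 3 earlier ones, with an interval of 32.1 to 44.4 CPM that did not reach theirs.

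Id4 was lower than each of the other three in cycling Neurod1+ precursors of every library and highest in late precursors. It stood at 39.2, 54.5, 49.6 and 11.4 CPM in cycling Neurod1+ precursors and at 112, 164, 198 and 83.6 CPM in non-cycling ones. It then reached 1000, 1059 and 1181 CPM in Tex15+ late precursors of P0, P3 and P7, and 589 CPM in the 27 cells of P21. Immature OSNs had 142, 163, 173 and 95.9 CPM, and mature OSNs had 246, 215, 258 and 183 CPM. Id4 was the 1 member of the 4 with a higher level in mature than in immature OSNs, and was so in every library. It was the member that reached the minimum in every library, and it was not called, against 6.19% of 3362 genes higher and 6.16% lower in mature OSNs.

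**Figure D1:**
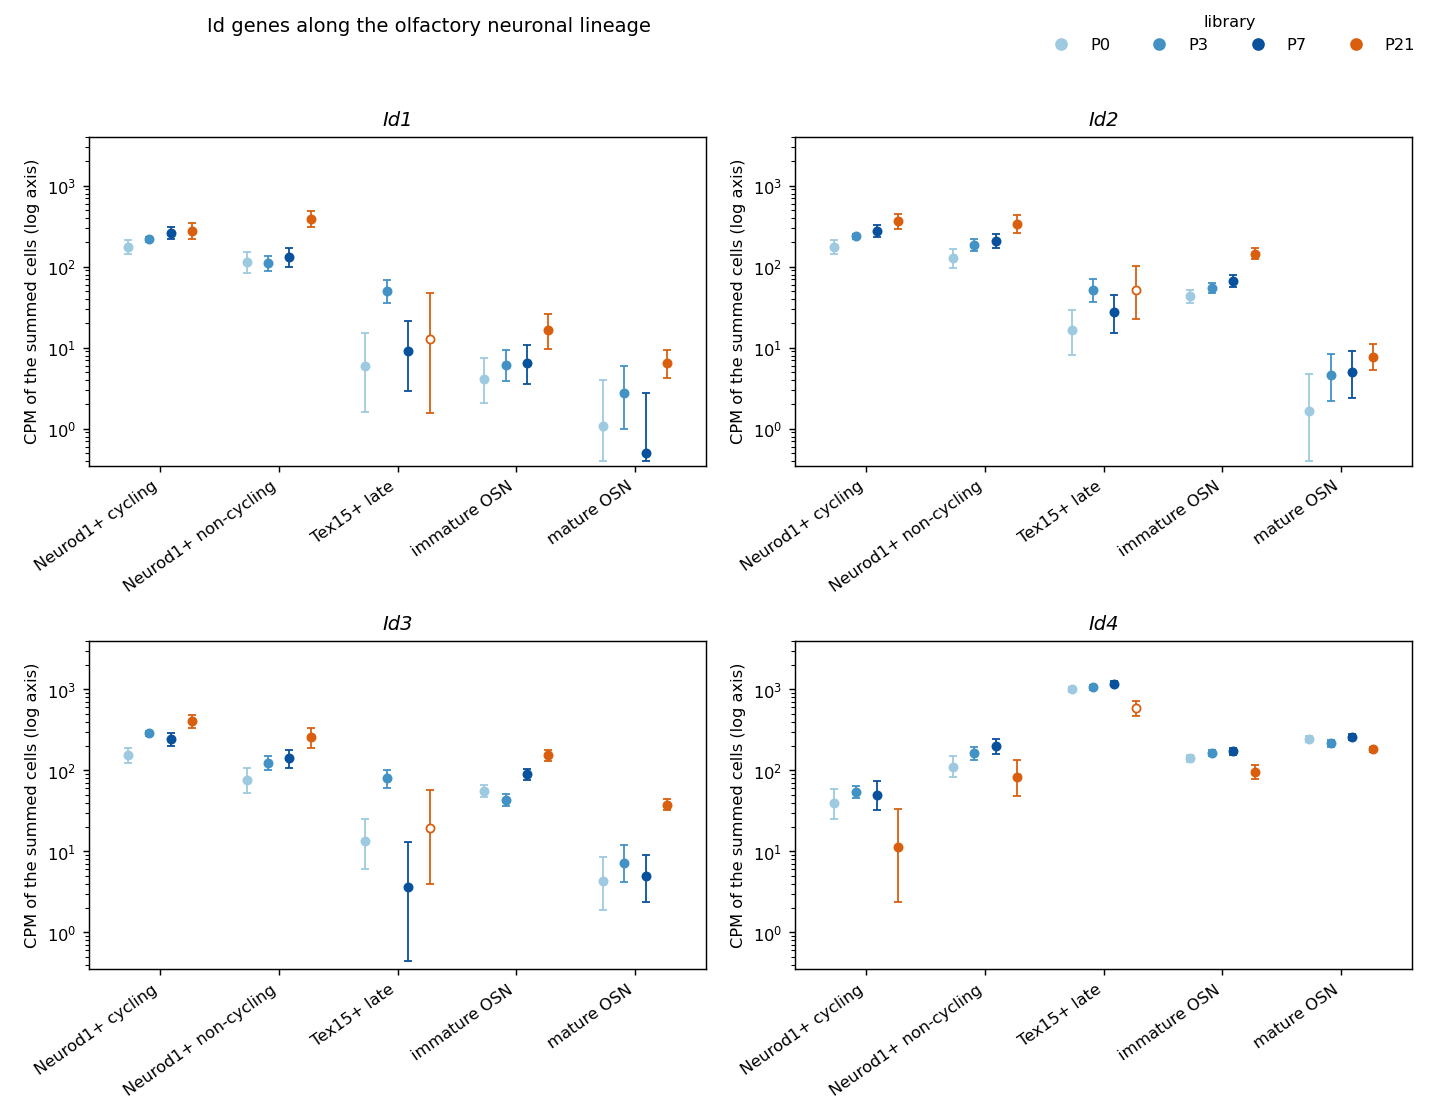
Level of each Id gene (CPM of the summed cells, log axis) in 5 gates of the neuronal lineage, 1 point per library, with bars for the 95% Poisson interval. Open points have under 30 cells, and a value or bar end under 0.4 CPM is drawn at 0.4. In each library Id1 and Id2 sit lower in the 3 gates on the right than in the 2 Neurod1+ gates, while Id4 peaks in Tex15+ late precursors at 589 to 1181 CPM.

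The Id4 peak, which is the pattern the genes were chosen by, was 8.94-, 6.45-, 5.97- and 7.05-fold over non-cycling Neurod1+ precursors of the same library (geometric mean 7.02, and 7.01 without the P21 library). At P21 that ratio rests on 91 and 16 UMIs, and 27 of the late precursors. Of the 4 members, all measured here, Id4 was at least 2-fold higher in all 4 libraries, as were 4.39% of the 1868 genes measured, and Id1 and Id2 were at least 2-fold lower in all 4 libraries, as were 4.60%. In immature OSNs Id4 was 7.05-, 6.50-, 6.82- and 6.14-fold lower than in the Tex15+ gate, the call made for 1 of the 2 members measured, and 3.11% of 3147 genes were at least 2-fold lower in all 4 libraries at this step, with 9.28% higher. The Tex15+ gate rests on 1 UMI of Tex15 in 158 of its 567 cells, and 37.0% of its P0 cells were at that minimum.

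Id4 RNA was found in most Tex15+ cells, not in a few. After each cell was thinned to 1500 UMIs, 68.3%, 70.1%, 69.2% and 46.2% of the late precursors had an Id4 UMI (12 of 26 cells at P21), against 80.9%, 87.3%, 85.3% and 85.2% before thinning. Leukocytes, which are not of this lineage, had thinned shares of 2.56%, 1.39%, 3.57% and 0% (0 of 21 cells at P21, with an upper limit of 16.1%). Median depth in the unthinned gates was 2699 to 5746 UMIs for late precursors and 1617 to 3010 for leukocytes. Mature OSNs lay between the 2, at 27.2%, 28.3%, 31.5% and 20.9%.

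The step from cycling to non-cycling Neurod1+ precursors already separated Id4 from the others. Id4 was 2.86-, 3.01- and 3.99-fold higher in non-cycling cells at P0, P3 and P7, and at P21 the ratio of 7.33 (2.1 to 39.2) rests on 16 and 3 UMIs. The ratio for Id3 was 0.492, 0.431, 0.578 and 0.635, so Id3 was lower after cycling in every library. Id1 was lower at P0, P3 and P7 (ratios 0.651, 0.505 and 0.503) and higher at P21 (1.41, 1.01 to 1.98). Id4 was under the minimum in a library, and none of the other 3 was 2-fold apart in all 4, against 2.74% of 2368 genes higher and 5.28% lower.

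At the next step Id1, Id2 and Id3 were lower. In Tex15+ late precursors Id2 was 7.84-, 3.61-, 7.68- and 6.56-fold lower than in non-cycling Neurod1+ precursors. Id1 was 19.2-, 2.18-, 14.5- and 30.3-fold lower, the last on 2 UMIs. Id3 was 5.68-, 1.56-, 38.8- and 13.2-fold lower, on 2 UMIs at P7 and 3 at P21. The P3 library had the smallest fold for all 3 genes. A single Tex15+ cell there held 36 of the 60 Id3 UMIs, 18 of the 38 Id1 UMIs and 13 of the 39 Id2 UMIs. The 8 cycle genes summed to 35.8, 275, 120 and 25.9 CPM in the Tex15+ gate, also highest at P3. The part of that cell or of dividing cells in the smaller folds was not tested.

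Id2 and Id3 were then higher again in immature OSNs than in late precursors. The ratio for Id2 was 2.65, 1.05, 2.45 and 2.80. For Id3 it was 4.16, 0.546, 24.6 and 7.88, with the P7 and P21 values resting on the 2 and 3 UMIs of the late precursors. At P3, the library with the 1 cell of many Id UMIs, neither gene was higher.

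Within the immature gate, Id2 and Id3 were lower in the cells with most Omp. Omp, the olfactory marker protein, appears as an OSN matures, and immature OSNs were split by their Omp UMIs. Id2 stood at 62.0, 79.1, 72.8 and 230 CPM with no Omp UMI, at 35.6, 59.6, 87.1 and 234 CPM with 1 or 2, and at 24.2, 23.2, 28.3 and 47.5 CPM with at least 3. Id3 stood at 82.6, 62.8, 120 and 191 CPM, at 61.4, 62.1, 77.5 and 268 CPM, and at 9.40, 10.1, 23.9 and 68.1 CPM in the same order. The cells with 1 or 2 Omp UMIs were thus not always between the others, and at P21 they had the most Id3. Both genes were at least 2-fold lower in all 4 libraries with at least 3 Omp UMIs than with none, a call made for 1.33% of 3166 genes, and 4.23% were called higher. Id4 had no common direction here, with ratios of 1.07, 0.516, 0.746 and 1.27.

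**Figure D2:**
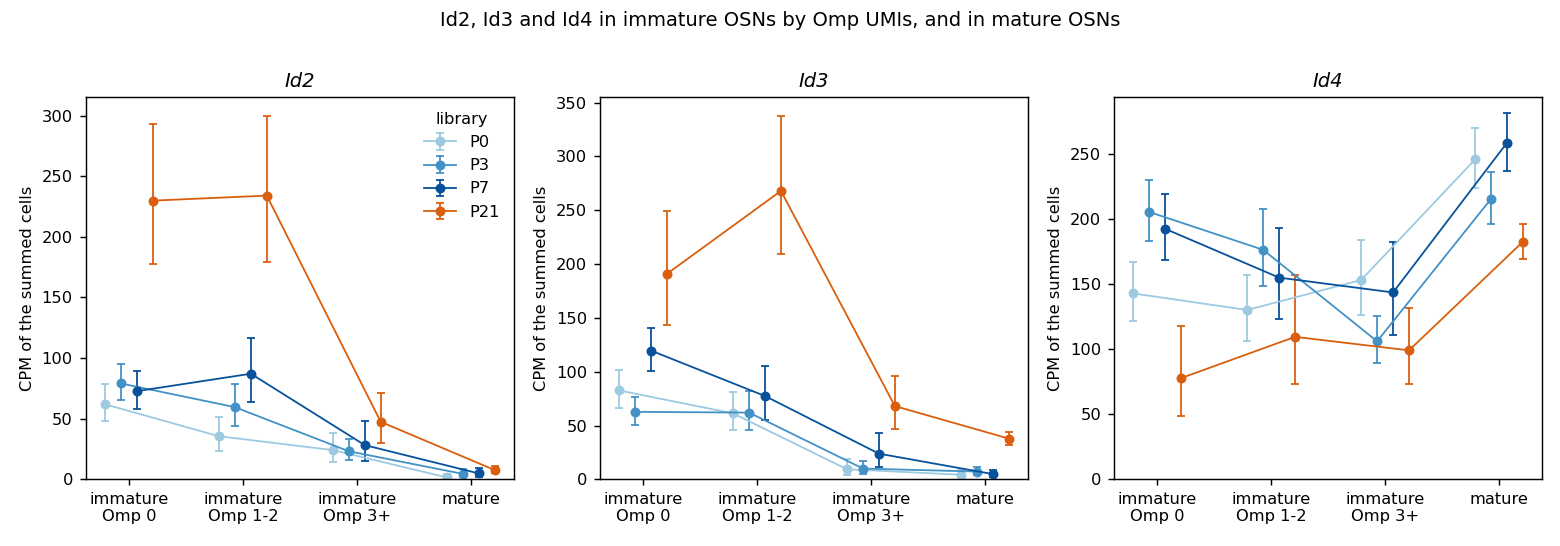
Level of Id2, Id3 and Id4 (CPM of the summed cells, linear axis from 0) in immature OSNs with 0, 1 to 2 or at least 3 Omp UMIs and in mature OSNs, 1 line per library, with bars for the 95% Poisson interval. Id2 and Id3 are lower with at least 3 Omp UMIs than with 0 or 1 to 2 in each library, and their P21 lines lie above the others at each immature point.

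The P21 library had the highest Id2 and Id3 in immature OSNs, which for Id2 is what the genes were chosen by. Relative to P0, Id2 was 3.35-fold higher (2.61 to 4.30) on 150 and 116 UMIs, and relative to P7 2.18-fold (1.72 to 2.75). Id3 was 2.75-fold higher than at P0 (2.18 to 3.46) and 1.71-fold higher than at P7 (1.38 to 2.12). Id4 went the other way, at 0.676 of its P0 level (0.537 to 0.846). Id1 was too low to be measured, with 17 UMIs at P21 and 11 at P0. Of the 3 members measured, Id2 and Id3 were at least 2-fold higher, as were 2.28% of 3725 genes, and none was lower, as were 1.15%.

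The thinned share of immature OSNs with an Id2 UMI was 5.25%, 6.98%, 7.01% and 15.3%, and before thinning it was 11.9%, 18.5%, 22.3% and 35.7%. In mature OSNs, where Id2 was nearly absent, the thinned share was 0%, 0.765%, 1.30% and 1.32%. Median depths were 3847 to 6955 UMIs in immature and 4200 to 5410 in mature OSNs. At P21 the 10 cells with most Id2 held 44.7% of the Id2 UMIs of the 154 immature OSNs. For Id3 the thinned shares were 8.02%, 5.62%, 10.8% and 18.0%, so the P21 library led for both genes by shares of cells as by CPM.

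The P21 immature gate was not identical in makeup to the others. The summed level of 7 further mature OSN markers was 2003, 2170, 1636 and 3208 CPM in immature OSNs, highest at P21. The 6 further immature OSN markers summed to 6828, 7411, 7465 and 7431 CPM. Stromal markers summed to 40.4, 39.6, 16.6 and 2.91 CPM, lowest at P21, where Col1a2, Dcn and Pdgfra were at 0. Leukocyte markers summed to 53.5, 67.9, 67.2 and 50.4 CPM. Microvillar markers summed to 49.4, 27.2, 32.2 and 99.8 CPM, highest at P21, and microvillar cells also have Id3. What such shifts contribute to the Id values was not tested.

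The higher Id2 and Id3 at P21 were present at each count of Omp UMIs. These counts were not scaled to depth, and immature OSNs without Id3 had a median of 3887 UMIs at P0 and 6950 at P21. An equal count can thus stand for a lower Omp level at P21, so the splits do not match the libraries by Omp level. Id2 was 3.71-fold higher than at P0 (2.60 to 5.28) with no Omp UMI, 6.58-fold (4.17 to 10.6) with 1 or 2, and 1.96-fold (1.01 to 3.86) with at least 3. Id3 was 2.31-fold (1.62 to 3.27), 4.37-fold (3.00 to 6.40) and 7.25-fold higher (3.15 to 19.4), the last on 33 and 7 UMIs. Among immature OSNs with an odorant receptor gene at 2 UMIs or more, Id2 was 3.60-fold (2.70 to 4.82) and Id3 3.12-fold higher (2.40 to 4.07). These splits use the same cells as the gate as a whole and are not independent of it.

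In immature OSNs of P21 and P0, cells with Id2 more often had Id3 than cells without Id2. At P21, 10 of 23 thinned cells with an Id2 UMI also had an Id3 UMI (43.5%, 23.2% to 65.5%), against 17 of 127 without Id2 (13.4%, 8.00% to 20.6%). At P0 the shares were 8 of 36 (22.2%, 10.1% to 39.2%) and 47 of 650 (7.23%, 5.36% to 9.50%). At P3 (9.76% and 5.31%) and P7 (15.4% and 10.4%) the intervals overlapped. Among immature OSNs with no Omp UMI they overlapped in every library, on fewer cells with Id2 (10 at P21 and 24 at P0). The shares were 30% (6.67% to 65.2%) against 16.2% (6.19% to 32.0%) at P21, 20.8% against 9.83% at P0, 8.00% against 7.38% at P3 and 18.2% against 11.5% at P7. Overlap on so few cells does not show that the shares were alike. Other gates also had intervals apart, namely cycling Neurod1+ precursors (34.0% against 18.8%) and stromal cells (89.8% against 68.8%) of P3. Mature OSNs of P21 did too (27.3% against 2.55%, on 11 cells with Id2). The order was turned in non-cycling Neurod1+ precursors of P0 (4.55% against 7.55%) and horizontal basal cells of P7 (0% against 9.84%). The 28 immature P21 cells with at least 2 Id2 UMIs had 295 CPM of Omp and 4834 CPM of Gap43, against 807 and 3463 CPM in the 99 cells without Id2.

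The Neurod1+ precursors of the P21 library also had more Id1, Id2 and Id3. In non-cycling cells, 33 at P21 and 129 at P0, Id1 went from 114, 110 and 132 CPM at P0, P3 and P7 to 392 CPM, 3.43-fold over P0 (2.36 to 5.04). Id2 was 2.64-fold higher (1.81 to 3.87), and 1.63-fold over P7. Id3 stood at 76.1, 124, 141 and 256 CPM, 3.36-fold over P0 (2.11 to 5.43) and 1.82-fold over P7. With every gate threshold doubled the ratios over P0 were 2.40 for Id1, 2.45 for Id2 and 1.70 for Id3. In cells thinned to 1500 UMIs they were 2.96 (1.48 to 5.78), 1.94 (0.971 to 3.69) and 2 (0.683 to 5.30). The minimum of 2 Neurod1 UMIs was just met by 31.0% of these cells at P0 and 3.03% at P21. Of the 4 members, these 3 were at least 2-fold higher than at P0, as were 2.75% of 3125 genes, and none was lower, as were 7.17%.

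In cycling Neurod1+ precursors Id2 was 2.08-fold (1.56 to 2.78) and Id3 2.60-fold higher at P21 than at P0 (1.95 to 3.48), on 30 and 123 cells. Those were the 2 of 3 measured members at least 2-fold higher, as were 2.42% of 3137 genes, with 3.51% lower. Id1 was 1.58-fold higher (1.16 to 2.16). Over P3 and P7 the ratios were smaller, at 1.52 and 1.30 for Id2, 1.40 and 1.65 for Id3 and 1.28 and 1.06 for Id1. Id4 had 3 UMIs at P21 and 23 at P0, a ratio of 0.292 (0.056 to 0.965).

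**Figure D3:**
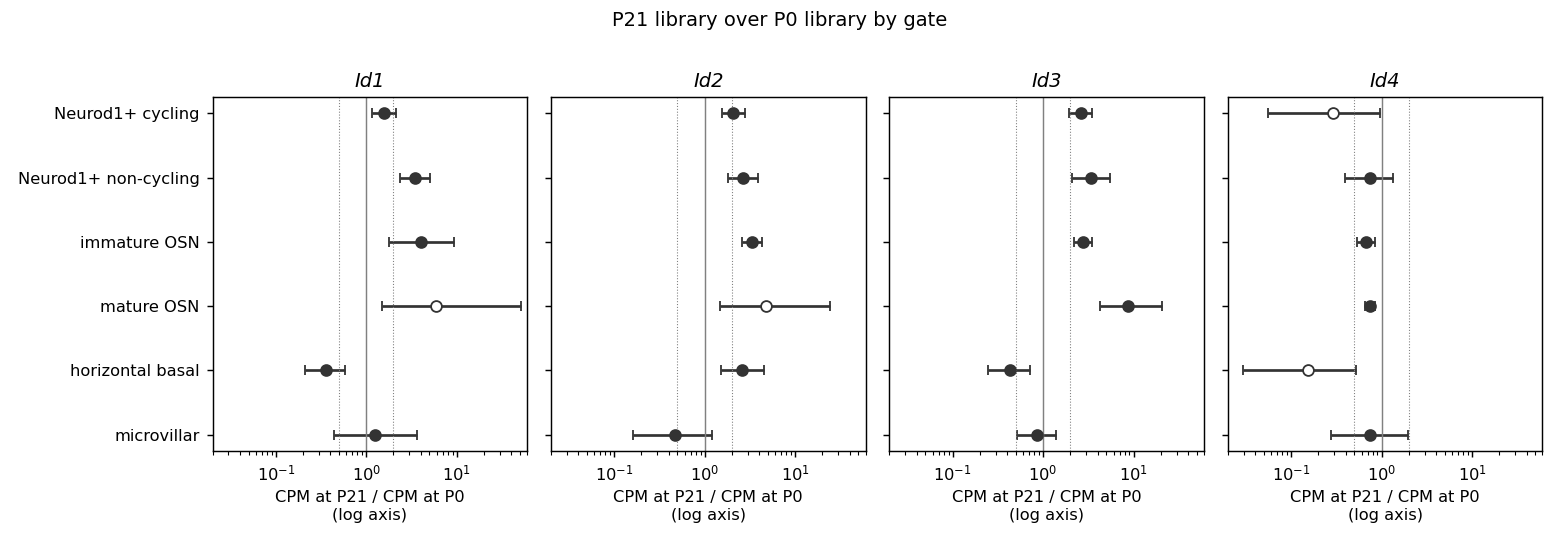
Ratio of the CPM at P21 to that at P0 for each Id gene (log axis) in the 6 gates with at least 30 cells in both libraries, with bars for the 95% interval and dotted lines at 0.5 and 2. Open points have 3 UMIs or fewer in a library. Id2 and Id3 lie right of 1 in all 4 neuronal gates and Id4 left of it, while Id1 and Id3 lie left of 1 in horizontal basal cells.

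Id3 was higher in mature OSNs of the P21 library than in those of the earlier ones. Its 152 UMIs there, against 8, 16 and 10 at P0, P3 and P7, gave ratios of 8.66 (4.28 to 20.4) over P0, 5.19 (3.09 to 9.31) over P3 and 7.65 (4.05 to 16.3) over P7. At 37.9 CPM it stayed under the 50 CPM minimum, so no call was made. Id2 had 31 and 3 UMIs at P21 and P0 (4.71, 1.47 to 24.1), with ratios of 1.69 over P3 and 1.56 over P7, and Id1 had 26 and 2 (5.92, 1.48 to 51.5). Id4, the member measured in this gate, was at 0.743 of its P0 level (0.660 to 0.837), and was not called, while 3.69% of 3526 genes were at least 2-fold higher and 2.69% lower.

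The mature gates of the 2 libraries also differed in makeup. Of 4 clusters led by mature OSNs, 1 held 123 cells at P0 and 571 at P21, and another held 166 and 83. In mature OSNs the 6 stromal markers summed to 36.7, 40.6, 22.8 and 8.23 CPM, the 6 ensheathing glia markers to 12, 12.3, 13.9 and 5.74 CPM and the 6 mural markers to 17.5, 31.0, 12.4 and 2.24 CPM. The 7 further mature OSN markers summed to 9424, 8695, 10552 and 16049 CPM. The part of these differences in the Id values was not tested.

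The Id3 UMIs of mature P21 OSNs were concentrated in few cells. Of 885 cells, 54 (6.10%) had an Id3 UMI, and the 27 with at least 2 held 125 of the 152 UMIs, up to 16 in a cell. After thinning, 2.88% of mature P21 OSNs had an Id3 UMI, against 0.504%, 1.02% and 0.781% in the earlier libraries. Leukocytes had thinned shares of 5.13%, 1.39%, 7.14% and 4.76%, on 1 or 2 cells each, at median depths of 1617 to 3010 UMIs. By share of cells, Id3 in mature OSNs did not exceed that level, and 1 of the 24 P21 leukocytes also had 2 Id3 UMIs. The values that follow describe the mature OSNs with at least 2. Markers of the Id3-rich cell types were at 1 to 3 UMIs in these 27 cells. Stromal markers summed to 12.3 CPM against 8.35 CPM in the 831 cells without Id3, ensheathing glia markers to 18.4 against 4.85 CPM and mural markers to 6.13 against 1.89 CPM. Leukocyte markers, on 3 UMIs, summed to 18.4 against 8.89 CPM. The part of these cell types in the Id3 values was not tested.

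Genes that set these 27 cells apart were looked for after the Id3 values had been seen, so they are a description of 1 library. They were ranked by their CPM ratio to the 831 cells without Id3, with 20 CPM added to both. The highest were taken among genes found in at least 5 of the 27, and the lowest among genes other than odorant receptors found in at least 10% of the cells without Id3. S100a5, a calcium-binding protein of OSNs whose level is known to follow their activity, stood at 57863 CPM in the 27 cells, 22578 CPM in the 27 with 1 Id3 UMI and 12644 CPM in the rest. All 27 cells had it, and the median cell had 56207 CPM against 4310 CPM in cells without Id3. Pcp4l1, a small relative of the calmodulin-binding protein Pcp4, stood at 5412, 2297 and 1413 CPM in the same order. Both followed the number of Id3 UMIs in the cell.

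Other genes of the 10 highest were Id1, at 104 CPM against 1.89 CPM on 17 and 7 UMIs, and Rprm, a cell cycle inhibitor, at 288 against 24.8 CPM. Ppa1, an inorganic pyrophosphatase, stood at 6755 against 552 CPM, but its median cell had 1270 against 379 CPM, so a few cells carried most of it. The neuropeptide gene Avp led the ranking with 474 UMIs in 8 of the 27 cells. Among the 10 lowest, Calb2, the calcium-binding protein calretinin, was 6.07-fold lower at 196 against 1190 CPM. Olig1, a helix-loop-helix factor of OSNs, had 2 UMIs in the 27 cells, or 12.3 CPM against 223 CPM (ratio 0.0550, 0.00665 to 0.199).

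The 27 cells also had the mature OSN markers that the gate did not use, which summed to 12896 CPM in them and 16303 CPM in cells without Id3. Omp, which the gate used, stood at 5314 and 6430 CPM, and Id4 at 178 and 184 CPM. In 22 of the 27 an odorant receptor gene had at least 2 UMIs, and the 22 receptors were all different. The 718 cells without Id3 that had a receptor spread over 445 receptors, with at most 14 cells on any 1. With so many receptors in use, 22 different ones do not set these cells apart. Median depth was 5697 UMIs, against 4159 in cells without Id3. A list of 10 genes of dissociation stress summed to 803 CPM in them and 1038 CPM in cells without Id3.

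In the other libraries Id3-positive mature OSNs were few, and the same comparison used cells with any Id3 UMI. The median cell had 6604 CPM of S100a5 against 601 at P0 (7 and 419 cells), 1171 against 535 at P3 (15 and 383 cells) and 8025 against 930 at P7 (8 and 386 cells). At P21 it was 35451 against 4310 CPM (54 and 831 cells). The median was higher with Id3 in each of the 4 libraries. Summed over cells, Pcp4l1 stood at 2056 against 591 CPM at P0, 720 against 691 CPM at P3 and 2315 against 1107 CPM at P7. Calb2 stood at 427 against 1668 CPM, 1800 against 2053 CPM and 913 against 1646 CPM in the same order. The low Olig1 of the 27 cells was not seen elsewhere, with 80.1 against 81.6 CPM at P0, 221 against 119 CPM at P3, 234 against 129 CPM at P7, and 235 against 223 CPM in P21 cells with 1 Id3 UMI. Id1 was not found in the Id3-positive cells of P0, P3 and P7, which numbered 7, 15 and 8.

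**Figure D4:**
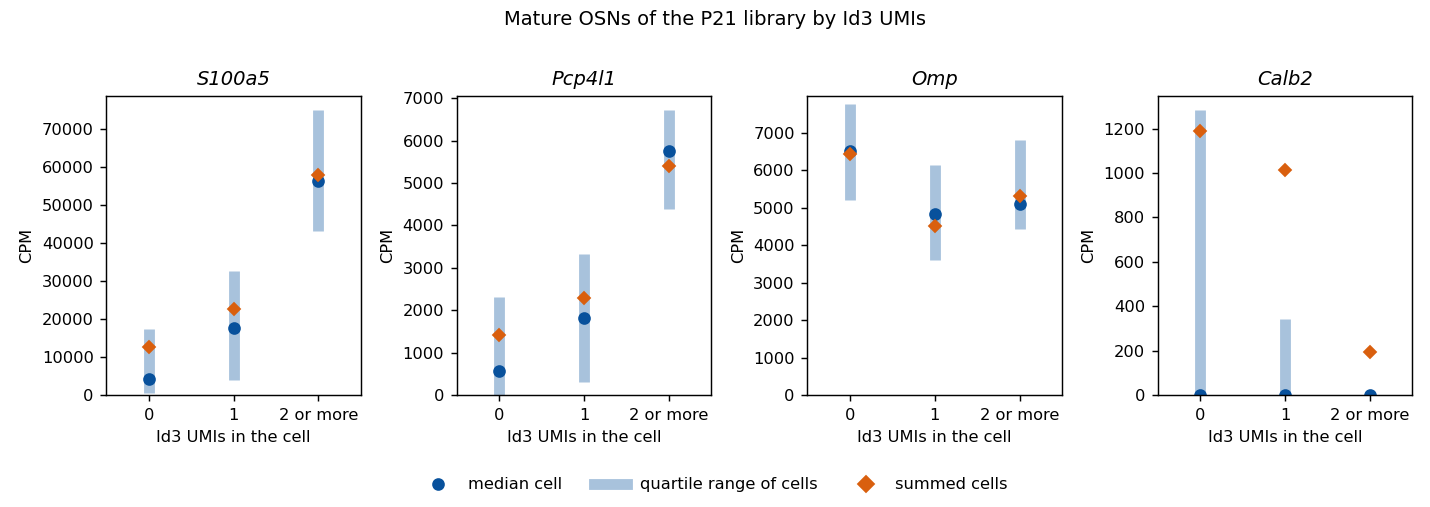
CPM of S100a5, Pcp4l1, Omp and Calb2 (linear axes from 0) in mature OSNs of the P21 library with 0, 1 or at least 2 Id3 UMIs (831, 27 and 27 cells), as the median cell (dot), the quartile range of cells (bar) and the summed cells (diamond). S100a5 and Pcp4l1 climb with Id3 UMIs, Omp does not, and Calb2 is lowest in cells with at least 2.

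Within mature OSNs Id4 differed by Nqo1 UMIs. Nqo1 marks dorsal OSNs, although cells with no Nqo1 UMI can include dorsal cells in which it was not captured. Id4 was higher in cells with no Nqo1 UMI than in cells with at least 2 in each library. It stood at 294, 265, 292 and 213 CPM against 218, 181, 240 and 137 CPM. The ratios were 1.34, 1.46, 1.22 and 1.56, with the lower limits of all 4 intervals above 1. Of 2919 genes, 15.2% were higher in all 4 libraries, and 1.64% were so by at least 1.2-fold in each, as Id4 was.

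Horizontal basal cells, gated by keratin and other basal markers, had more Id1, Id2 and Id3 and less Id4 than mature OSNs in every library. Within the basal gate Id4 was close to Id2 at P0 (80.3 and 84.3 CPM) and to Id3 at P7 (59.1 and 65.7 CPM). Id1 stood at 269, 265, 181 and 95.4 CPM, which was 246-, 96.7-, 365- and 14.7-fold over mature OSNs (geometric mean 106). The mature level rests on 2, 6 and 1 UMIs before P21, and without the P21 library the mean ratio was 205. Id3 stood at 205, 160, 65.7 and 87.1 CPM, or 46.8-, 21.9-, 13.3- and 2.30-fold over mature OSNs (geometric mean 13.3, and 23.9 without P21). The 6 stromal markers summed to 389, 624, 197 and 278 CPM in the basal gate, against 36.7, 40.6, 22.8 and 8.23 CPM in mature OSNs. Stromal cells are rich in Id3, and the part of stromal RNA in the basal Id values was not tested. Id2 stood at 84.3, 157, 115 and 216 CPM, 51.3-, 34.4-, 23.2- and 27.9-fold over mature OSNs. Id4 was lower than in mature OSNs, with ratios of 0.327, 0.186, 0.229 and 0.0682. All 4 members were thus at least 2-fold apart in all 4 libraries, in a comparison where 14.7% of 3152 genes were higher and 27.5% lower.

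Id1 and Id3 were lower at P21 than at P0 in horizontal basal cells and higher in Neurod1+ precursors. Id1 at P21 was 0.355 of its P0 level (0.211 to 0.577) and Id3 0.426 (0.243 to 0.720), whereas Id2 was 2.56-fold higher (1.51 to 4.47). Against P7 the Id1 ratio was 0.528 (0.310 to 0.873), but the Id3 ratio was 1.33 (0.684 to 2.58), so the direction for Id3 turned with the library chosen. Against P3 the Id2 ratio was 1.38 (0.981 to 1.90). Id4 had 3 UMIs at P21 and 20 at P0 (ratio 0.155, 0.0295 to 0.523). Id2 was called higher and the other 3 lower between P21 and P0, in a gate with 9.51% of 2450 genes higher and 11.7% lower. Of 2 clusters led by horizontal basal cells, 1 held 92 cells at P0 and 22 at P21, and the other 34 and 66. The 8 cycle genes summed to 361, 365, 306 and 16.6 CPM in the basal gate at P0, P3, P7 and P21. The 6 precursor markers summed to 482, 537, 585 and 199 CPM there. The part of these shifts in makeup in the Id values was not tested.

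The other cell types had their own Id genes. Id3 was highest in ensheathing glia, the cells that wrap olfactory axons, at 1723, 2095 and 2231 CPM at P0, P3 and P7. Mural cells had 909, 1556 and 1209 CPM and stromal cells 825, 1528 and 1220 CPM. Ranked by the mean over libraries, ensheathing glia (2016 CPM) did not overlap mural cells (1224 CPM), mural and stromal cells (1191 CPM) overlapped, and stromal cells did not overlap the next gate, cycling Neurod1+ precursors (273 CPM). The P21 library had 6 to 11 cells of these gates and is not ranked. Microvillar cells, with 256, 292 and 216 CPM at P0, P3 and P21, were the epithelial neighbours with most Id3, and Id3, the member measured there, was not 2-fold apart between P21 and P0 (5.35% of 1607 genes higher and 7.90% lower).

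Id2 was highest in leukocytes, at 297, 564 and 421 CPM at P0, P3 and P7, and at 695 CPM in the 24 leukocytes of P21. That range overlapped the next gates, cycling Neurod1+ precursors (mean 263 CPM) and stromal cells (260 CPM). Leukocytes otherwise had little of the family, with Id1 at 14.1, 17.8 and 31.2 CPM and Id3 at 14.1, 17.8 and 39.0 CPM.

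Id1 had no gate of its own. Its 7 highest gates, from cycling Neurod1+ precursors (mean 233 CPM), sustentacular cells (206 CPM) and horizontal basal cells (202 CPM) down to mural cells (94.3 CPM), overlapped in range from each to the next. Id4 had a first gate set apart from all others, Tex15+ late precursors (mean 1080 CPM over P0, P3 and P7). The 27 late precursors of P21, at 589 CPM, were left out of that mean. Next came mature OSNs (226 CPM), mural cells (163 CPM) and immature OSNs (143 CPM), which overlapped. Ensheathing glia had no Id4 UMI at P0 (upper limit 35.5 CPM), and 11 and 4 at P3 and P7.

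**Figure D5:**
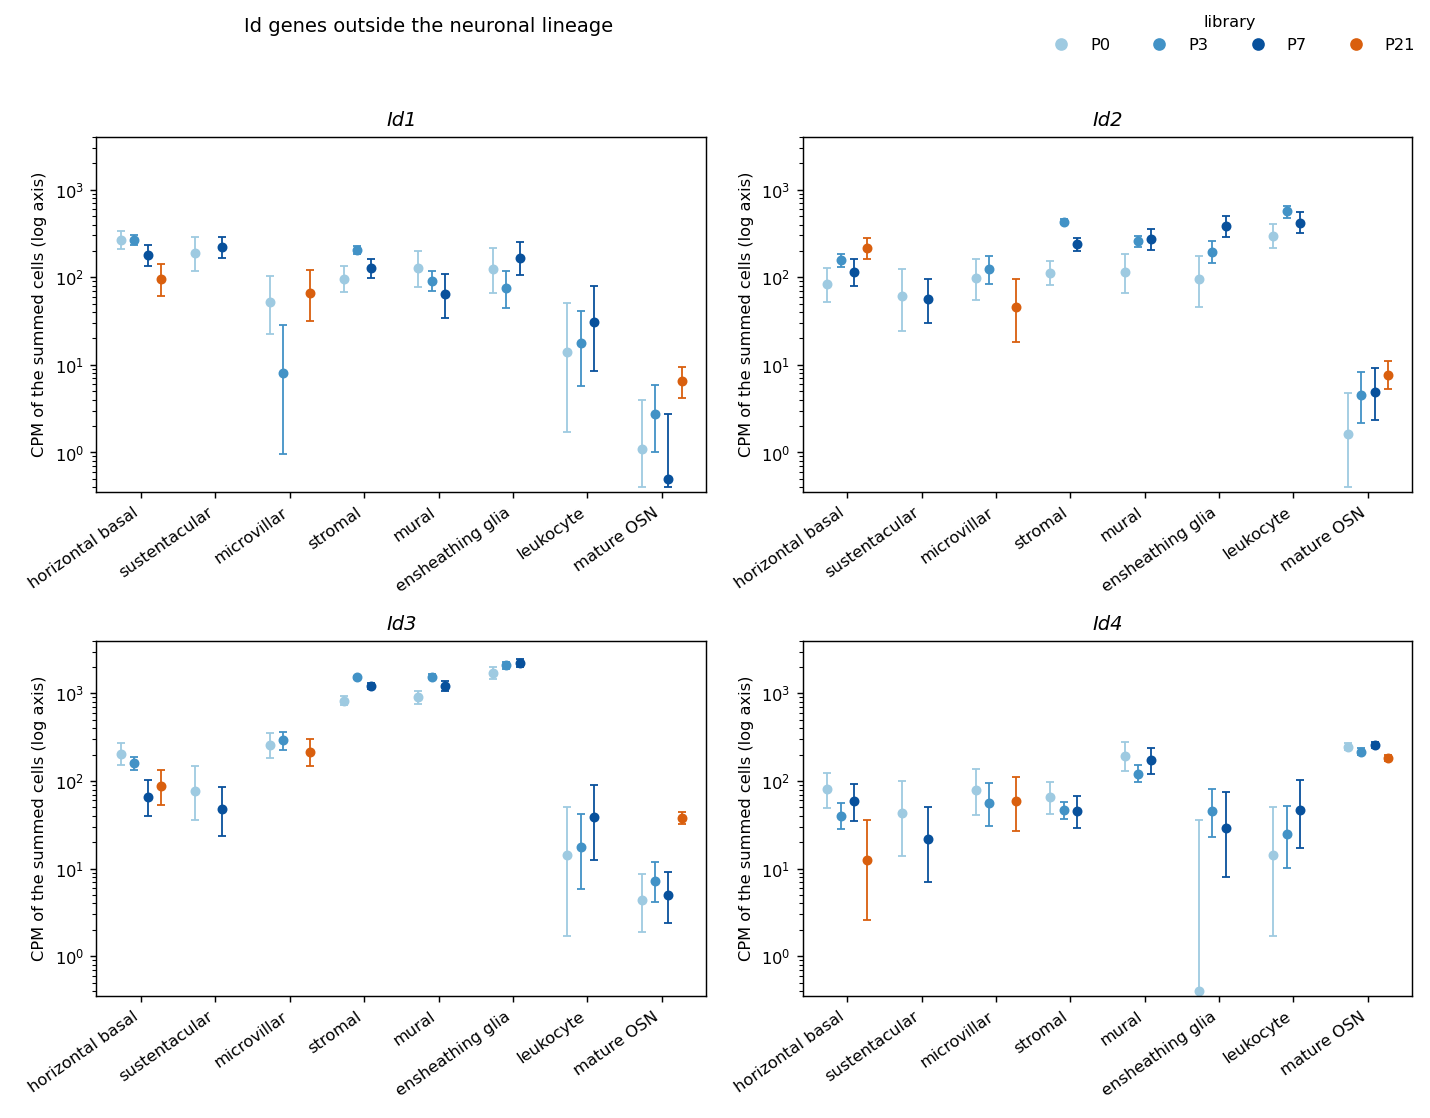
Level of each Id gene (CPM of the summed cells, log axis) in 7 gates outside the neuronal lineage and, for comparison, in mature OSNs, for libraries with at least 30 cells, with bars for the 95% Poisson interval. Values under 0.4 CPM are drawn at 0.4. Id3 is highest in ensheathing glia at 1723 to 2231 CPM, Id2 in leukocytes, and Id4 in mature OSNs.

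Of the E proteins that Id proteins bind, Tcf3 and Tcf4 were also lower in mature OSNs than in cycling precursors. None of those measured was called between P0 and P21 in OSNs. Over all genes measured, 2.28% were called higher and 1.15% lower in immature OSNs, and 3.69% and 2.69% in mature OSNs. Tcf3 stood at 201, 215, 196 and 167 CPM in cycling Neurod1+ precursors and at 34.5, 35.1, 36.6 and 41.1 CPM in mature OSNs. Tcf4 went from 368, 497, 619 and 502 CPM to 43.2, 53.9, 68.3 and 56.1 CPM between the same gates. In immature OSNs, P21 over P0, the ratio was 1.22 (0.938 to 1.57) for Tcf3 and 1.12 (0.886 to 1.41) for Tcf4, so neither was called, and Tcf12, at 28.4 to 40.1 CPM, was not measured.

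Other genes of the pathway were counted in the immature gate as a description. Of all 3725 genes measured in this gate, 2.28% were called higher and 1.15% lower, so lists this short would be met with few calls. Of 9 proneural and neuronal helix-loop-helix factors 4 were measured and none called. Their median log2 ratio was 0.35, against 0.03 over all genes measured, and their ratios ran from 0.667 to 1.69. Of 7 Hes and Hey repressors, Hes6 alone was measured, at 160, 180, 177 and 76.5 CPM, and was 0.477 of its P0 level at P21 (0.370 to 0.607). All 4 Ebf factors, activators of OSN genes that pair through a helix-loop-helix of their own, were measured and none was called. Of the 13 BMP and TGF-beta ligands, 6 Smads, 8 BMP antagonists and 5 BMP feedback inhibitors none reached the minimum, and of 11 receptors Tgfbr1 did, at a ratio of 0.969 (0.704 to 1.32). In the mature gate Olig1 was the member of these lists called, at 81.5, 123, 132 and 215 CPM, 2.63-fold higher at P21 (2.21 to 3.15). There 3.69% of 3526 genes were called higher and 2.69% lower.

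The genes most like each member were ranked by Pearson correlation of log2(CPM + 10) over 40 sums of gate and library, among 5095 genes that reached 100 CPM in a sum. The sums share libraries, and gates of 1 lineage share their cell type, so these values only describe likeness. For Id4 they were Ankrd10 (0.88), Srpk2 (0.83), Myt1l (0.80), Gm13589 (0.79) and Fam103a1 (0.78), all with their highest level in the Tex15+ gate. For Id3 they were Tceal8 and Nr2f2 (both 0.87), Phldb2 (0.86), Mesdc2 and Ckap4 (both 0.85), with highest levels in ensheathing glia or stromal cells. For Id1 they were Mdk and Nt5dc2 (both 0.84), Trp53, Elavl1 and Dhrs4, and for Id2 Npc2 (0.82), Npm1, Litaf, Ifitm2 and 2610001J05Rik. Among the members, Id1, Id2 and Id3 correlated at 0.58 to 0.61 with each other and at -0.57 to -0.41 with Id4.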

How the data were processed

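The data were 4 tables of UMI counts, 1 per library, whose values are whole-number counts per gene and cell as deposited by the authors; Seurat, Cell Ranger 2.1.1 and the mm10 genome are named in the submitters' processing notes, and no label says which tool wrote the tables. Cells with under 500 genes, over 10% mitochondrial or over 10% haemoglobin UMIs were removed (17 of 9126), leaving 6844712 to 17770838 UMIs per library. Of the 49671 symbols, 47240 were found in GENCODE M21. Cells were gated by marker UMIs with Python 3.11.15 and pandas 2.3.3: non-neuronal sets needed 5 UMIs over 2 markers, Neurod1 2 UMIs (cycling with 3 UMIs over 8 cycle genes), Tex15 1, Gap43 5 and Omp 4. Neuronal gates on Gap43 and Omp also needed 0.1% of the UMIs of the cell. Scanpy 1.11.5 gave clusters and Scrublet scores. Scrublet called 59 cells, and no cell was removed as a doublet except in an alternative; 41 cells with markers of several lineages were left out, and 303 cells of a further gate are not reported here. Intervals are exact Poisson for CPM, exact conditional binomial for ratios and Clopper-Pearson for shares (SciPy 1.17.1). No count model was run, since each age has 1 library. The 2-fold call was run on simulated counts with larger fold changes and counting error only. That run cannot check the call at 2-fold or against differences between libraries.

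The members, gates and gene lists were chosen with earlier results of these data known. The genes named are the 4 members in the gates compared, the 5 genes most like each, the E proteins and the list genes called in the immature gate. The genes named within Id3-positive mature OSNs and Olig1 in the mature gate were added after their values had been seen. Alternatives tried were other scalings, doubled gate thresholds, clusters, doublet scores, thinning, other earlier libraries and the removal of shared barcodes.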

Additional observations from a re-analysis of the deposited data

Results flagged for a closer look

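Id1 and Id3 differed between the P0 and P21 libraries in opposite directions in gates of the neuronal lineage and in horizontal basal cells. Between the P0 and P21 libraries, the ratio for Id1 was 3.43 in non-cycling Neurod1+ precursors and 0.355 in horizontal basal cells. For Id3 it was 2.60 in cycling Neurod1+ precursors, 3.36 in non-cycling ones and 2.75 in immature OSNs, and 0.426 in horizontal basal cells. The difference between these cell types was not tested, since each age has 1 library. The basal gate also differed in makeup, with the 8 cycle genes at 361 CPM at P0 and 16.6 CPM at P21. Against P7 in place of P0, Id3 in horizontal basal cells had a ratio of 1.33 and no longer went down. With clusters in place of gates its ratio over P0 was 0.647 (0.392 to 1.04).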

How the results depend on the processing

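No paired analysis was possible because each age has 1 library, and for the same reason no replicate could be left out. With P7 as the earlier library the ratio of Id3 in horizontal basal cells turned from 0.426 to 1.33, and no other ratio recomputed turned direction under the alternatives run, which were 9 or 10 for each ratio and 8 for each gene count. With P7 as the earlier library Id2 in immature OSNs was 2.18-fold higher at P21 (3.35 over P0), and its range over the alternatives was 2.18 to 4.09. With clusters in place of gates the Id4 step into Tex15+ late precursors was 5.05-fold (7.02 with gates, range 5.05 to 7.87). Without the P21 library, an alternative chosen after seeing the data, horizontal basal cells over mature OSNs gave 205 for Id1 (106 with all 4) and 23.9 for Id3 (13.3 with all 4). With cells thinned to 1500 UMIs the Id2 ratio in mature OSNs was 1.27 (4.71 unthinned), because P0 was then at 0 and the floor of 3 counts was used. Genes called between P21 and P0 in immature OSNs numbered 85 higher and 43 lower, 329 and 189 at 1.5-fold, and 960 and 912 with no minimum level. In mature OSNs they numbered 130 and 95, 421 and 361 at 1.5-fold, and 1492 and 1211 with no minimum. Thinning was not run for gene counts. Leaving out shared barcodes, also chosen after seeing the data, moved no recomputed result beyond its interval. Id3 in mature OSNs ranged from 5.19 to 10.5 over the alternatives and Id4 from 0.706 to 0.847. Ratios with Id1 in mature OSNs of P0, P3 and P7, or with Id4 in cycling precursors and horizontal basal cells of P21, rest on a few UMIs.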
